A study of Bos taurus with 25 samples.

Results

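The genes described here code for splicing factors and related RNA-binding proteins. They were taken from a bovine expression array by their gene symbols: every probe whose annotated transcript belongs to a gene with a symbol starting with SRSF, HNRNP, SF3A, SF3B, U2AF, LUC7L, CLK (1 to 4), RBM or PRPF, or equal to ZRANB2 or PAXBP1. This gave 219 probes of 77 genes, out of 43653 probes on the array, of which 53.9% could be given a symbol (11068 different symbols). RBM was the largest family with 27 genes and 58 probes, followed by HNRNP with 15 genes and 60 probes and SRSF with 9 genes and 28 probes. PRPF had 8 genes, SF3B 5, and CLK, SF3A and U2AF 3 each, and LUC7L had 2. A further 32 gene symbols that fit the rule, among them CLK2, SRSF2, LUC7L2 and RBM39, matched no probe. For 57 genes several probes, up to 8, read different parts of the transcripts, and each probe was kept apart. Genes such as HNRNPA1 have near-identical copies in the genome that a probe may not tell apart.

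Introns are removed from new transcripts by the spliceosome, which is built on each intron from small nuclear ribonucleoproteins and many helper proteins. SR proteins (the SRSF genes) mostly promote the use of a splice site, hnRNPs (the HNRNP genes) bind the nascent transcript and often oppose it, and CLK kinases release SR proteins from nuclear speckles by phosphorylating them. LUC7L proteins belong to the U1 particle that marks the start of the intron, and the U2AF, SF3A and SF3B proteins act at its end. PRPF proteins hold the core of the machine together. Many of these genes regulate their own messages through retained introns or exons that send the transcript to decay, and such transcripts can be kept in the nucleus. RBM is a looser name, which also covers nucleolar proteins such as RBM28 that take part in ribosome assembly.

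The samples were liver and mammary gland biopsies of 13 Holstein dairy cows, taken 64 ± 3 days after calving. Each week the cows were injected in the muscle with 5 mL of saline (Ctl), with 320 mg of folic acid (B9), with 10 mg of vitamin B12 (B12) or with both vitamins (B9 + B12). There were 12 liver arrays, namely 3 Ctl, 3 B9, 4 B12 and 2 B9 + B12, and 13 mammary arrays, namely 3 Ctl, 3 B9, 4 B12 and 3 B9 + B12. Every array of a group came from a different cow, and 12 cows gave both tissues. The controls, too, were lactating cows that received injections, and the biopsies mixed all cell types of the tissue, so that fewer cells of a type and less RNA per cell cannot be told apart.

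The tissue labels fitted their defining genes. On values normalized over both tissues, the mean log2 level of 25 hepatocyte probes was 15.9 to 16.4 in liver and 6.85 to 8.76 in mammary gland, and that of 20 probes for milk protein genes was 18.4 to 18.5 in mammary gland and 6.30 to 8.69 in liver. The number of arrays limits the precision, and the arrays also differed in strength. The ratio of the median signal to the median local background was 2.24 to 10.4 on the liver arrays and 2.93 to 5.06 on the mammary arrays. Of the 219 splicing factor probes, 208 were well above background on every liver array and 201 on every mammary array. Both RBM46 probes and 1 probe each of RBM20, RBM28 and RBMXL2 were not well above background on any liver array, so that their values are bounds. Levels below are log2 values of the authors' table, in which the tissues have different medians, unless said otherwise, so a level in liver cannot be set against a level in mammary gland.

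In liver, the 6 genes followed array by array (CLK1, LUC7L3, SRSF11, HNRNPH1, ZRANB2 and PAXBP1) were low on the same 2 arrays. CLK1, a kinase of SR proteins, was at 11.87, 11.72 and 11.58 in Ctl (cows 42, 43 and 51), at 11.04, 11.33 and 8.96 in B9 (cows 39, 41 and 57), at 11.36, 11.39, 11.26 and 11.89 in B12 (cows 36, 37, 40 and 52), and at 8.06 and 11.79 in B9 + B12 (cows 32 and 38). The arrays of cow 57 (B9) and cow 32 (B9 + B12) thus lay 5.92 and 11.0 times below the mean of the other 10, which was 11.52 ± 0.29 (SD, n = 10), and no other array of any group came near them. The comparison with the other 10 arrays is a description without a test, since these 2 arrays were singled out on their values. All 4 CLK1 probes did the same: relative to the mean of the other 10 arrays they lay at -1.89 to -2.56 log2 units for cow 57 and at -2.22 to -3.48 for cow 32.

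LUC7L3, a protein of the U1 particle, followed this order. It was at 11.86, 11.22 and 11.62 in Ctl (cows 42, 43 and 51), at 11.61, 11.73 and 9.69 in B9 (cows 39, 41 and 57), at 11.76, 11.46, 11.87 and 11.89 in B12 (cows 36, 37, 40 and 52), and at 8.93 and 12.01 in B9 + B12 (cows 32 and 38). The array of cow 57 was 4.03 times and that of cow 32 was 6.83 times below the mean of the others, 11.70 ± 0.24 (SD, n = 10). All 5 LUC7L3 probes were lower on both arrays, at -1.66 to -2.91 log2 units from the mean of the others.

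HNRNPH1, which binds runs of G in the transcript, was at 13.22, 13.37 and 13.33 in Ctl, at 12.83, 12.97 and 10.78 in B9, at 13.27, 13.10, 12.96 and 13.22 in B12, and at 10.53 and 13.23 in B9 + B12, with the cows in the same order. Against 13.15 ± 0.18 (SD, n = 10) on the other arrays, it was 5.17 times lower for cow 57 and 6.14 times lower for cow 32. PAXBP1, a nuclear protein named for its binding to PAX3 and PAX7, was at 11.66, 11.70 and 12.08 in Ctl, at 11.25, 11.77 and 8.67 in B9, at 12.07, 11.59, 11.65 and 11.63 in B12, and at 8.38 and 11.85 in B9 + B12. Its gaps of 8.31 times for cow 57 and 10.1 times for cow 32, from 11.72 ± 0.24 (SD, n = 10), were of similar size to those of CLK1. The zinc finger splicing factor ZRANB2 was at 9.18 for cow 57 and 8.55 for cow 32 and at 10.99 to 11.42 on the other arrays, so that it was 4.10 and 6.31 times below their mean. The SR protein gene SRSF11 had the narrowest gaps of the 6 genes, with 9.69 and 9.84 against 10.59 to 11.43, or 2.64 and 2.37 times below the mean of the others. Probes of the same gene gave gaps of different size: the weaker ZRANB2 probe lay at only -0.53 log2 units from the mean of the others on both arrays, while the 4 SRSF11 probes lay at -1.12 to -2.08.

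The mammary arrays showed a smaller version of the same order. CLK1 was at 11.12, 11.24 and 10.57 in Ctl (cows 42, 43 and 51), at 9.64, 11.19 and 11.36 in B9 (cows 39, 41 and 57), at 9.75, 10.94, 9.75 and 10.99 in B12 (cows 36, 37, 40 and 52), and at 11.04, 11.26 and 11.38 in B9 + B12 (cows 31, 32 and 38). The arrays of cow 39 (B9) and cows 36 and 40 (B12) were the low ones here, 2.56 to 2.78 times below the mean of the other 10. Cows 57 and 32, low in liver, were among the highest in the gland.

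HNRNPH1 was at 11.69 for cow 39, 11.77 for cow 36 and 11.58 for cow 40, and at 12.41 to 13.08 on the other mammary arrays, or 2.02 to 2.30 times lower on the low arrays. PAXBP1 was at 9.11, 9.13 and 8.97 on these arrays and at 9.65 to 10.34 on the others, 1.88 to 2.09 times lower. ZRANB2 was 1.57 to 1.96 times lower, and on its brightest probe these arrays, at 9.34 to 9.67, did not overlap with the others, at 10.12 to 10.58. LUC7L3 and SRSF11 were less clear: the array of cow 36, at 10.30 for LUC7L3 and 10.58 for SRSF11, overlapped with the other arrays, and the gaps of the 3 arrays were 1.34 to 1.64 and 1.15 to 1.49 times.

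**Figure D1:**
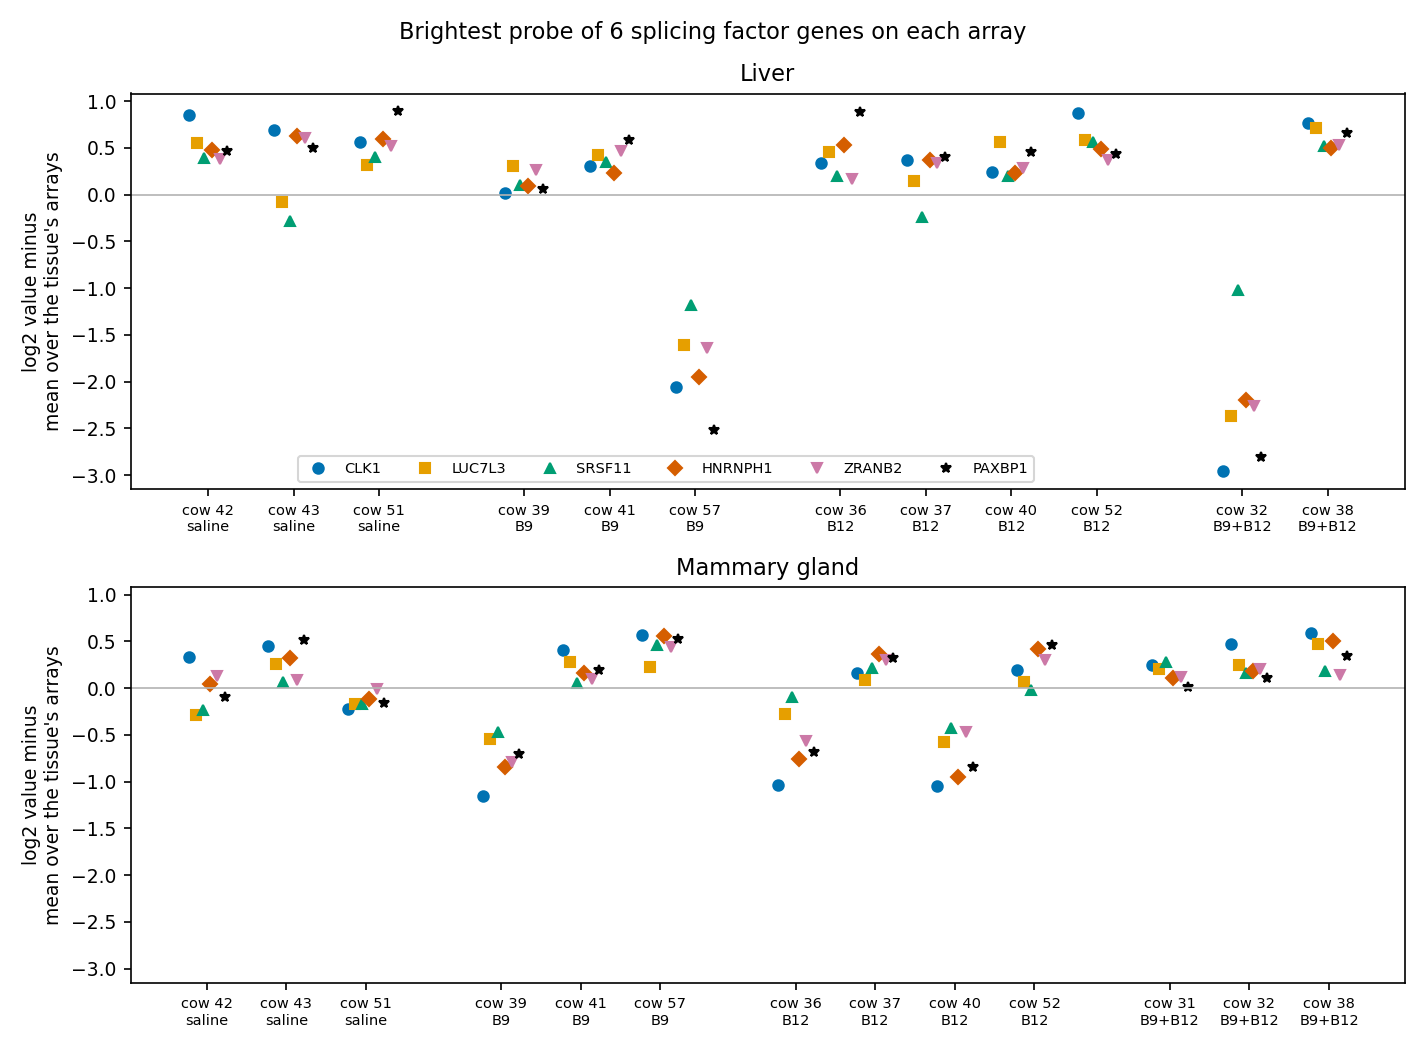
Log2 value minus the probe's mean over the arrays of the tissue, for CLK1, LUC7L3, SRSF11, HNRNPH1, ZRANB2 and PAXBP1 on each array. The probe brightest in liver is shown for each gene. Liver and mammary gland are in separate panels because the tissues have different medians in the table, with arrays by treatment group. The liver arrays of cows 57 and 32 lie below the other 10 for every gene shown. Before the mean was subtracted, CLK1 was at 8.96 and 8.06 on them, against 11.04 to 11.89.

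The whole set shared this order in part. Its counts include the probes of the genes followed array by array, on whose values the low arrays were singled out. On both of these liver arrays 90 of the 219 probes (41.1%, from 41 genes) were below all other 10 arrays, against 16.2% of all probes on the array, and 29 (13.2%) were above all others, against 16.4% of all probes. In mammary gland 40 probes (18.3%, from 17 genes) were below all others on all 3 arrays, against 3.01% of all probes, and 0 were above, against 1.16%. Probes at least 2-fold under their own mean numbered 38 (17.4%, against 4.61% of all probes) on the liver array of cow 57 and 41 (18.7%, against 4.97%) on that of cow 32.

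Some probes of splicing genes lay the other way. A probe each of SF3A2 and PRPF8, parts of the U2 and U5 particles, lay at 10.17 and 7.57 for cow 57. For cow 32 they lay at 10.36 and 7.61, above the 9.22 to 9.63 and 6.42 to 6.84 of the other liver arrays. A probe of HNRNPL, which binds CA repeats, was at 10.88 for cow 57 and 10.46 for cow 32 and at 9.66 to 10.16 elsewhere. A probe of PRPF19, a ubiquitin ligase of the spliceosome, was at 12.64 and 12.77 and at 11.90 to 12.42 elsewhere. Splicing factor probes thus lay on both sides of the other arrays. Probes of the same gene could differ as well: for SF3B1, a protein at the branch point, A_73_P094776 lay at -1.83 and -2.25 log2 units from the mean of the others for cows 57 and 32, and A_73_P334076 at -0.05 and -0.51.

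Over all members the median shift of an array from the probe means was therefore small, -0.15 log2 units for cow 57 and -0.22 for cow 32 in liver. Other splicing genes, a list of 87 measured genes without these families, had a median of -0.11 and -0.10 on the 2 arrays, and the cytosolic ribosomal protein genes, in 252 probes, had medians of 0.24 and 0.20 above their means.

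Other measures set the same arrays apart. The added E1A spike-in RNA, read by 10 probes and given relative to the 75th percentile of the array, compares a fixed addition with the upper range of the sample's own signal. It was 1.01 for cow 57 and 1.30 for cow 32 in log2 units, and -0.27 to 0.19 on the other liver arrays. In mammary gland it was highest for cows 36, 39 and 40, at 1.67, 1.42 and 1.38, against 0.49 to 1.21 on the others. Signal over background did not give that order in liver. It was 5.47 for cow 57 and 2.24 for cow 32, while cows 43 and 37, with 3.56 and 3.22, were not low in CLK1. In mammary gland it was lowest for cow 39, at 2.93. Cow 38, at 3.20 and not low in CLK1 there, lay below cows 40 and 36, at 3.25 and 3.37.

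Markers of other cells moved on some of these arrays as well. On the liver array of cow 57, 13 of 20 milk protein probes were at least 2-fold above their mean (median 1.07 log2 units), and the other liver arrays ran from -1.33 to 2.34, with cows 37 and 36 highest at 1.93 and 2.34. For cow 32 the leukocyte list had a median of 0.90, with 3 of 8 probes at least 2-fold up, and the other liver arrays lay between -0.23 and 0.12. The medians of its blood, early response and muscle lists, 0.34, 0.44 and 0.15, were also the highest of the liver arrays. That of its hepatocyte list, -0.22, was the lowest. Only 2 of the 12 muscle probes were well above background on every liver array. On the mammary array of cow 36, 4 of 5 blood probes were at least 2-fold up (median 1.36), and on those of cows 39 and 40 none was. The median of its early response list, 0.38, and that of its muscle list, 0.12 (2 of 12 probes at least 2-fold up), were also the highest of the mammary arrays. The part of these markers in the levels of the splicing genes was not tested.

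The relation to the array itself was fitted probe by probe within treatment groups with limma, as the change in log2 level per log2 unit of the array measure. In liver, with signal over background as the measure, 0 of 219 members and 0% of all probes passed an adjusted p of 0.05, and at an unadjusted p below 0.05 it was 61 members (27.9%, against 16.6% of all probes). With the spike-in level in its place, 80 members (36.5%) passed, against 19% of all probes. Of these, 72 from 26 genes fell as the spike-in level rose (32.9%, against 11.3%), and 8 rose (3.65%, against 7.75%). All probes of CLK1, LUC7L3, SRSF11, HNRNPH1, HNRNPDL, PRPF39, RBMS1, SRSF10 and SRSF6 fell, in 14 further genes only some of the probes did, and CLK4, PAXBP1 and SRSF1 have 1 probe each. The largest falls were those of PAXBP1, at -2.27 (SE 0.24, adjusted p = 0.000897), CLK1, at -2.08 (SE 0.29, adjusted p = 0.00173) and LUC7L3, at -1.88 (SE 0.16, adjusted p = 0.00077). The largest rises were those of 1 probe each of SF3A2, at 0.67 (SE 0.10, adjusted p = 0.00234), PRPF8, at 0.64 (SE 0.12), HNRNPL, at 0.49 (SE 0.15), PRPF19, at 0.48 (SE 0.14) and RBM4B, at 0.46 (SE 0.10). The spike-in level sets apart the same 2 arrays as the levels of these genes, so that its slopes and p-values restate that contrast and are no separate evidence. These calls rest on the 2 arrays: without those of cows 57 and 32, 0 members and 0% of all probes passed, and 27 members (12.3%, against 9.2%) were below an unadjusted p of 0.05.

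**Figure D2:**
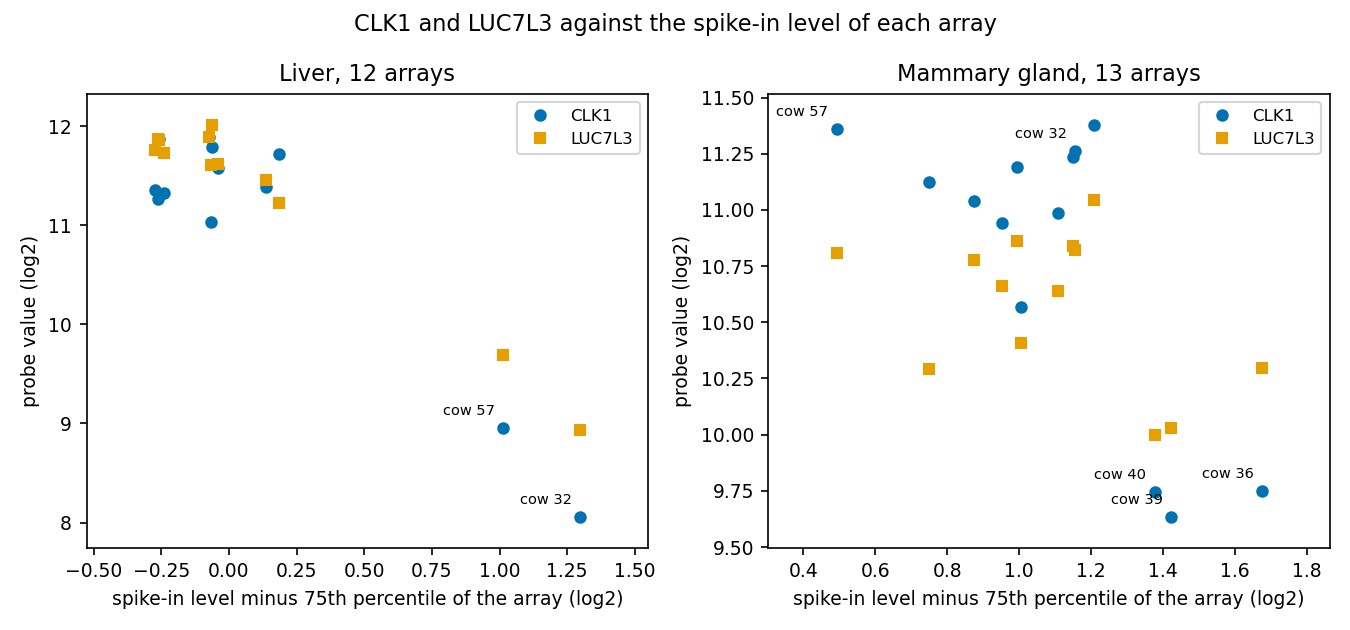
Log2 level of CLK1 and LUC7L3 against the spike-in level of the array in log2 units relative to the 75th percentile of the array, 1 point per array, for liver (12 arrays) and mammary gland (13 arrays). In liver the arrays of cows 57 and 32, at 1.01 and 1.30, lie apart from the other 10 on both axes.

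In mammary gland, 48 members (21.9%) changed with signal over background, against 7.17% of all probes, and 97 (44.3%, against 22.1%) had an unadjusted p below 0.05. The count depended on the measure and the scaling: it was 0 members and 0% of all probes with the share of probes well above background as the measure, and 20 members (9.13%, against 4.72%) with processed signals scaled by the 75th percentile. Of the 48, 46 from 24 genes rose with it (21.0%, against 3.02%), and the list of other splicing genes had 25 of 207 probes called (12.1%). HNRNPH1 had the steepest rise, 2.06 (SE 0.39, adjusted p = 0.0121), and CLK1 rose by 2.04 and 2.02 on its steepest probes (SE 0.48, adjusted p = 0.0277 and 0.03). The 2 members that fell (0.913%, against 4.15%) were single probes of CLK3 and U2AF2. That of CLK3, another SR protein kinase with 6 probes, was at -2.03 (SE 0.32, adjusted p = 0.00634). That of U2AF2, the factor that binds the pyrimidine tract, was at -2.19 (SE 0.50, adjusted p = 0.0264). Of the 6 genes followed by array, all probes of HNRNPH1 and SRSF11 rose, 3 of 4 of CLK1, 2 of 5 of LUC7L3, and PAXBP1 and the brighter probe of ZRANB2. With the spike-in level as the measure, 17 members (7.76%, against 2.23%) passed. All of these fell as the spike-in level rose, against 0.82% of all probes falling and 1.41% rising, with CLK1 at -1.62 (SE 0.37, adjusted p = 0.0494) and LUC7L at -1.47 (SE 0.23, adjusted p = 0.0194).

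The mammary counts depended on few arrays too. Without the array of B9 cow 57, on which the median of the members was highest (0.20 log2 units above the probe means), 0 members (0.0137% of all probes) passed for signal over background. On that array 15 of 25 hepatocyte probes were at least 2-fold above their mean (median 1.37 log2 units, the highest of the mammary arrays), and the blood list had a median of -0.42. The part of these markers in the count was not tested. With other arrays left out singly, the count was 2 (HNRNPR and RBMS1, 0.913%, against 0.985% of all probes) without that of B9 cow 39, 23 (10.5%, against 3.83%) without that of B12 cow 37, 25 (11.4%, against 3.91%) without that of B12 cow 40 and 29 (13.2%, against 4.65%) without that of Ctl cow 51. Without the arrays of cows 36, 39 and 40 together, 0 members and 0% of all probes passed, and 34 members (15.5%, against 10.2%) were below an unadjusted p of 0.05, or 39 (17.8%, against 11.2%) with the spike-in level. The 2 tissues use different measures here and partly the same cows. Of the 46 members that rose with signal over background in mammary gland, 36 (78.3%) were among the 72 that fell with the spike-in level in liver (50% of those). Over all probes 721 were shared, 54.6% of the 1320 that rose in mammary gland and 14.7% of the 4915 that fell in liver. Of the members, 127 of the 219 were called in neither.

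**Figure D3:**
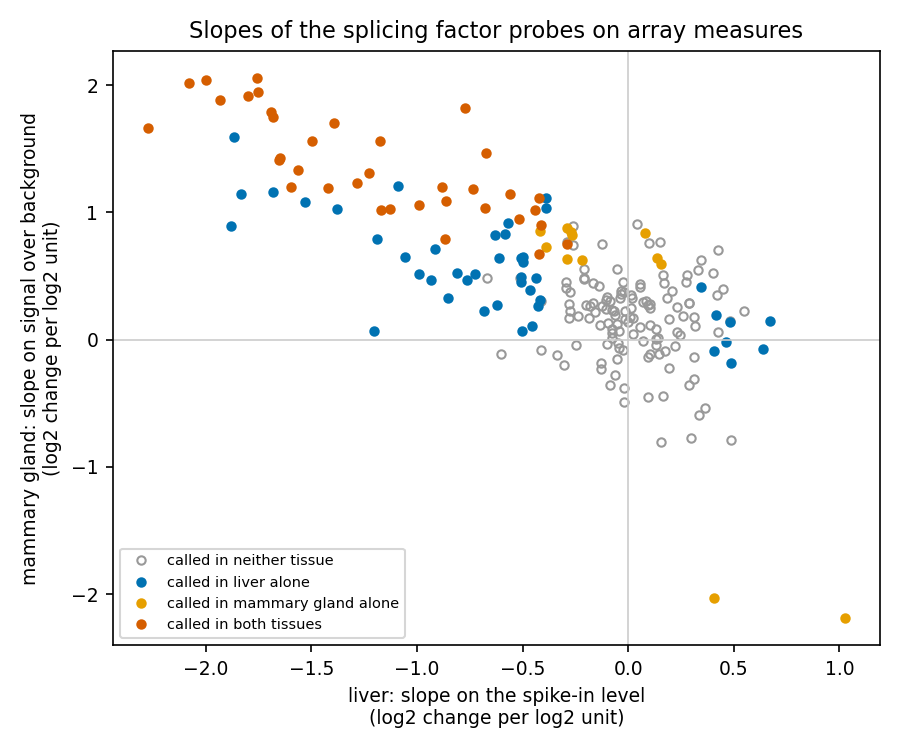
Change of each of the 219 splicing factor probes with the array, in log2 level per log2 unit, the spike-in level in liver on the horizontal axis and signal over background in mammary gland on the vertical axis, coloured by where the probe passed an adjusted p of 0.05. Probes of CLK1, HNRNPH1, LUC7L3 and PAXBP1 lie at the upper left, low with a high spike-in level in liver and high with a strong signal in mammary gland.

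Likeness to the brightest CLK1 probe was measured as the Pearson correlation of deviations from the group means, over 12 liver or 13 mammary arrays, which share slides and normalization. In liver 75 of 218 other member probes (34.4%) had an r over 0.7, against 14.7% of all probes, and 28 had an r under -0.7, a limit that 14.5% of all probes passed. In mammary gland 63 (28.9%, against 6.03%) had an r over 0.7 and 4 an r under -0.7, against 4.74% of all probes. By the brightest probe of each gene, those most like CLK1 in liver were PRPF39 (r = 0.986), a protein of the U1 particle, then ZRANB2 (0.982), HNRNPH1 (0.977), LUC7L3 (0.975), SF3B1 (0.969), PRPF38A (0.965), RBM27 (0.964), LUC7L (0.961), the SR protein gene SRSF5 (0.955) and PAXBP1 (0.953). In mammary gland their r ran from 0.631 for PRPF38A to 0.965 for HNRNPH1.

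By family, all 8 LUC7L probes had an r over 0.7 in both tissues, and among the 28 SRSF probes 15 did in liver and 9 in mammary gland, with 0 under -0.7. None of the 7 U2AF and 4 SF3A probes did in either tissue, and 2 of each had an r under -0.7 in liver. Of the 58 RBM probes, 12 were over 0.7 and 9 under -0.7 in liver. Much of the likeness came with the arrays that stand apart: without them, 20 member probes (9.17%, against 4.8% of all probes) had an r over 0.7 in liver and 14 (6.42%, against 2.7%) in mammary gland. Then PRPF39 had an r of 0.795 in liver, HNRNPH1 0.388, PAXBP1 -0.101 and SF3B1 -0.605, and in mammary gland HNRNPH1 had 0.795 and PAXBP1 0.746.

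**Figure D4:**
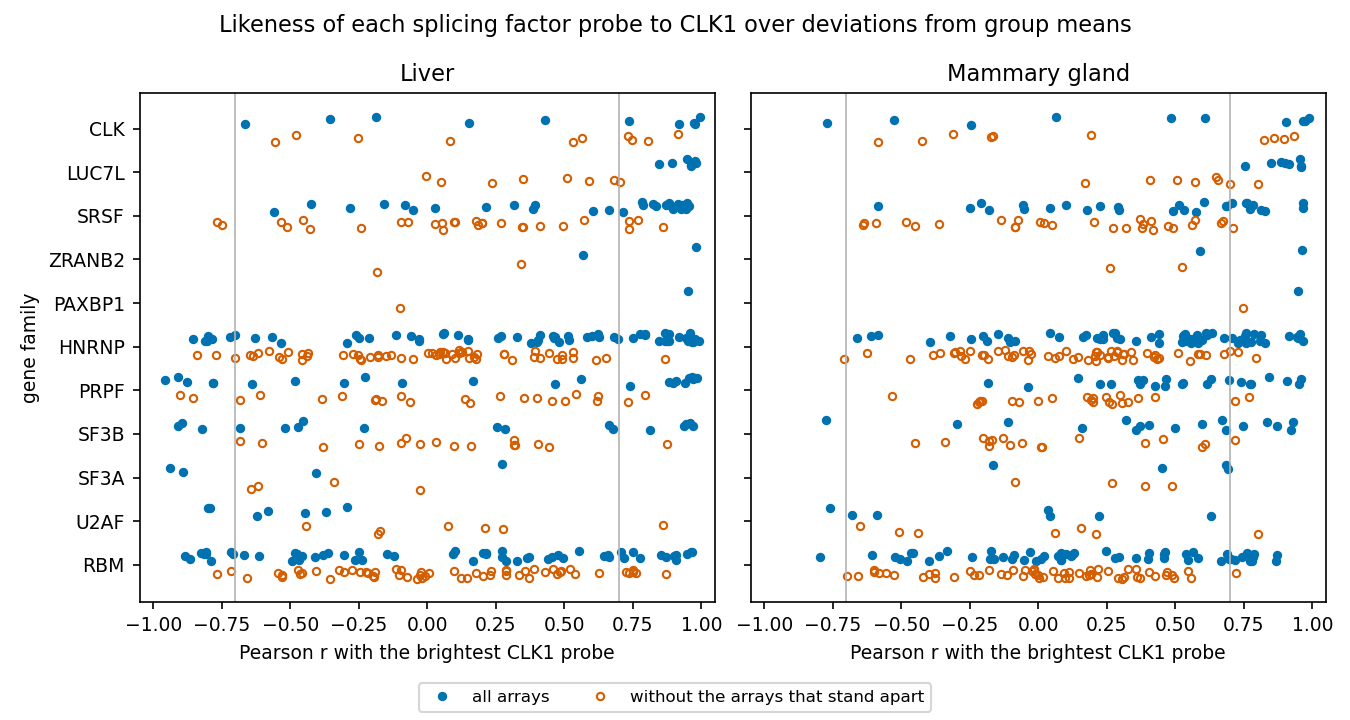
Pearson r of each splicing factor probe with the brightest CLK1 probe over deviations from group means, by family, in liver (12 arrays) and mammary gland (13 arrays). Filled points are from all arrays, and hollow points leave out the arrays that stand apart. With all arrays, the 8 LUC7L probes lie above 0.7 in both tissues, while the 4 SF3A and 7 U2AF probes stay below it.

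Whether the vitamins changed these genes was asked in each tissue against saline. None of the treatments gave a splicing factor probe that passed limma at an adjusted p of 0.05 with a 2-fold difference. In liver 0 of 219 members were called for B9 (0% of all probes), for B12 (0.00229%) and for B9 + B12 (0%), and in mammary gland 0 for each of the 3 (0%). All 3 comparisons of a tissue share its control arrays. At an unadjusted p below 0.05 there were 6 members for B9 (2.74%, against 3.42% of all probes), 5 for B12 (2.28%, against 1.99%) and 6 for B9 + B12 (2.74%, against 5.99%) in liver, and 2, 4 and 1 (0.913%, 1.83% and 0.457%, against 2.6%, 2.25% and 1.97%) in mammary gland. The Cyber-T test of the study's methods called 0 members in each as well, against 0.0115%, 0.11% and 0.0596% of all probes in liver and 0.0275%, 0.0275% and 0.0229% in mammary gland. Without the liver array of B9 + B12 cow 38, which leaves cow 32 alone in that group with a spread taken from the other groups, 1 LUC7L3 probe was called, at -2.97 (limma adjusted p = 0.0449). That is 0.457% of the members, against 0.335% of all probes.

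The arrays of treated and control cows did not overlap in liver for 23 members under B9, 14 under B12 and 39 under the combination (10.5%, 6.39% and 17.8%, against 8.46%, 4.98% and 21.8% of all probes), and for 6, 2 and 19 in mammary gland (2.74%, 0.913% and 8.68%, against 7.01%, 3.87% and 6.89%). The smallest p that an exact two-sided permutation test can give is 0.1 for B9 and for B9 + B12, and 0.0286 for B12.

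For CLK1 the low arrays dominated the group means. In liver it was 11.72 ± 0.14 (SD, n = 3) in Ctl and 10.44 ± 1.29 (SD, n = 3) in B9, a difference of -1.28 (SE 0.81, limma adjusted p = 0.891), and 9.93 ± 2.64 (SD, n = 2) in B9 + B12, a difference of -1.80 (SE 0.91, limma adjusted p = 0.664). Without the arrays of cows 57 and 32 the sign of the B9 + B12 difference turned, to 0.07, with 1 array left in that group, and that of LUC7L3 turned to 0.10 for B9 and 0.45 for B9 + B12.

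None of the members named next passed the test. In liver B9, SRSF7, an SR protein gene, was at 9.67 ± 0.24 in Ctl and 10.14 ± 0.32 (SD, n = 3 each), a difference of 0.47 (SE 0.19), and RBM17, a splicing factor of the U2 particle, was 0.46 (SE 0.19) above Ctl. A probe of HNRNPM, also named, lay above all Ctl arrays on every B9 array. SRSF1, LUC7L and CLK4 were at -0.54, -0.73 and -0.92 relative to Ctl, with an adjusted p of 0.891 from limma for each. The means of Ctl and B9 were 11.94 ± 0.16 and 11.39 ± 0.49 for SRSF1, 12.50 ± 0.16 and 11.77 ± 0.64 for LUC7L, and 8.78 ± 0.14 and 7.86 ± 1.04 for CLK4 (SD, n = 3 each). The low array of cow 57 is one of the B9 arrays, and CLK4 was at 6.66 on it and at 8.37 and 8.55 on the other B9 arrays. In liver B12, 3 probes of PRPF8, the core protein of the U5 particle, were at -0.35, -0.37 and -0.26 (adjusted p = 1 from limma), while SRSF7 was at 0.41, RBM28 at 0.23 and SF3B3 at 0.22. In liver B9 + B12, HNRNPUL1 was at 0.42, RBM17 at 0.53, U2AF2 at 0.46, PRPF3 at -0.52 and RBM45 at -0.37. An SRSF11 probe other than the one followed array by array, A_73_P034026, was at -1.34 (SE 0.57, adjusted p = 0.664 from limma). Its means were 8.997 ± 1.26 (SD, n = 2) in B9 + B12 and 10.33 ± 0.05 (SD, n = 3) in Ctl. The low array of cow 32 is one of these B9 + B12 arrays. The median shift of the SRSF11 probes from their means was -1.23 on it and 0.22 on that of cow 38.

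In mammary gland, HNRNPLL, a regulator of lymphocyte receptor splicing, was at 10.13 ± 0.03 (SD, n = 3) in Ctl, 9.73 ± 0.23 (SD, n = 3) in B9 and 9.66 ± 0.33 (SD, n = 4) in B12, differences of -0.40 (SE 0.28) and -0.47 (SE 0.26, adjusted p = 1 from limma for both). In B9, HNRNPU was at 0.28, HNRNPUL1 at 0.22 and RBM43 at -0.31 relative to Ctl, and HNRNPAB was at 0.17 in B12. In B9 + B12, the SF3B1 probe A_73_P378411 was at 0.40 (SE 0.14, adjusted p = 1 from limma), HNRNPC and the weaker ZRANB2 probe at 0.20, RBM28 at -0.27 and PRPF38A at -0.16. The probes of RBM24 and RBM46 that the same rule named in B9 and in B9 + B12 were well above background on 1 and on 0 of the 13 mammary arrays, so that their differences are not read.

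The treatment effects in liver and mammary gland were also set against each other. For 0 members and 0% of all probes did the effect differ between the tissues for B9, B12 or B9 + B12 at an adjusted p of 0.05 with a 2-fold difference. At an unadjusted p below 0.05 it was 1, 1 and 10 members (0.457%, 0.457% and 4.57%, against 2.35%, 1.82% and 4.26% of all probes). Without the liver array of cow 38 the same LUC7L3 probe was called for B9 + B12, at -2.73 (limma adjusted p = 0.0395), which is 0.457% of the members against 0.254% of all probes.

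Between the tissues themselves, on values normalized over both, more of the splicing genes had the lower level in liver. Of 219 members 26 (11.9%, from 15 genes) differed at an adjusted p of 0.05 and at least 2-fold in limma, against 18.7% of all probes. With processed signals scaled by the 75th percentile it was 29 (13.2%), against 45% of all probes. Only 1 was higher in liver (0.457%, against 8.79%), and 25 from 14 genes were lower (11.4%, against 9.89%). The median difference, liver minus mammary gland, was -0.31 log2 units over the members and -0.03 over all probes. Of 207 probes of other splicing genes, 20 were called (9.66%), with 17 lower in liver and a median of -0.32.

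HNRNPLL had the largest difference of the members called. Its arrays did not overlap between the tissues: it was at 7.41 to 7.77 on the 12 liver arrays and at 10.03 to 11.40 on the 13 mammary arrays, with means of 7.63 ± 0.10 (SD, n = 12) and 10.65 ± 0.42 (SD, n = 13). The fitted difference, which weights treatment groups equally, was -3.05 (SE 0.12, adjusted p = 6.36e-15 from limma). The member called higher in liver was 1 of the 6 probes of HNRNPF, a close relative of HNRNPH1. It was at 9.03 to 9.38 against 7.94 to 8.27, a difference of 1.02 (SE 0.04, adjusted p = 3.73e-14 from limma).

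All 6 HNRNPH1 probes were lower in liver, at -1.17 to -1.80 log2 units, as were all 4 CLK1 probes, at -1.09 to -1.44. On the probe with the largest difference, RBM5, a regulator of splicing in cell death genes, was at -1.37 (SE 0.13). On theirs, SRSF11 was at -1.36 (SE 0.17), LUC7L at -1.35 (SE 0.17) and SF3B1 at -1.30 (SE 0.22). RBM5 was called on 2 of 4 probes, SRSF11 on 1 of 4, LUC7L on 1 of 3 and SF3B1 on 1 of 8. HNRNPAB was called on 2 of 4 probes, RBM18 on 2 of 2, and LUC7L3, HNRNPA1, SRSF6, U2AF2 and HNRNPUL1 on 1 probe each. PAXBP1 was at -0.23 (adjusted p = 0.559 from limma). Without the 2 liver and 3 mammary arrays named above, 21 members were called (9.59%, against 18.6% of all probes). HNRNPLL was then at -3.12 and the 6 HNRNPH1 probes at -1.01 to -1.61, all still called. CLK1 kept 1 call, at -1.17, while its other probes, at -0.92 to -0.95, were just under 2-fold, and LUC7L3 lost its call, with its 5 probes at -0.48 to -0.79. PAXBP1 turned to 0.12 (adjusted p = 0.414 from limma). With signal over background in the fit the count was 41 (18.7%, against 19% of all probes). The HNRNPF probe, at 0.98, was then just under 2-fold. So was the SF3B1 probe, at -0.92, with processed signals scaled by the 75th percentile.

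**Figure D5:**
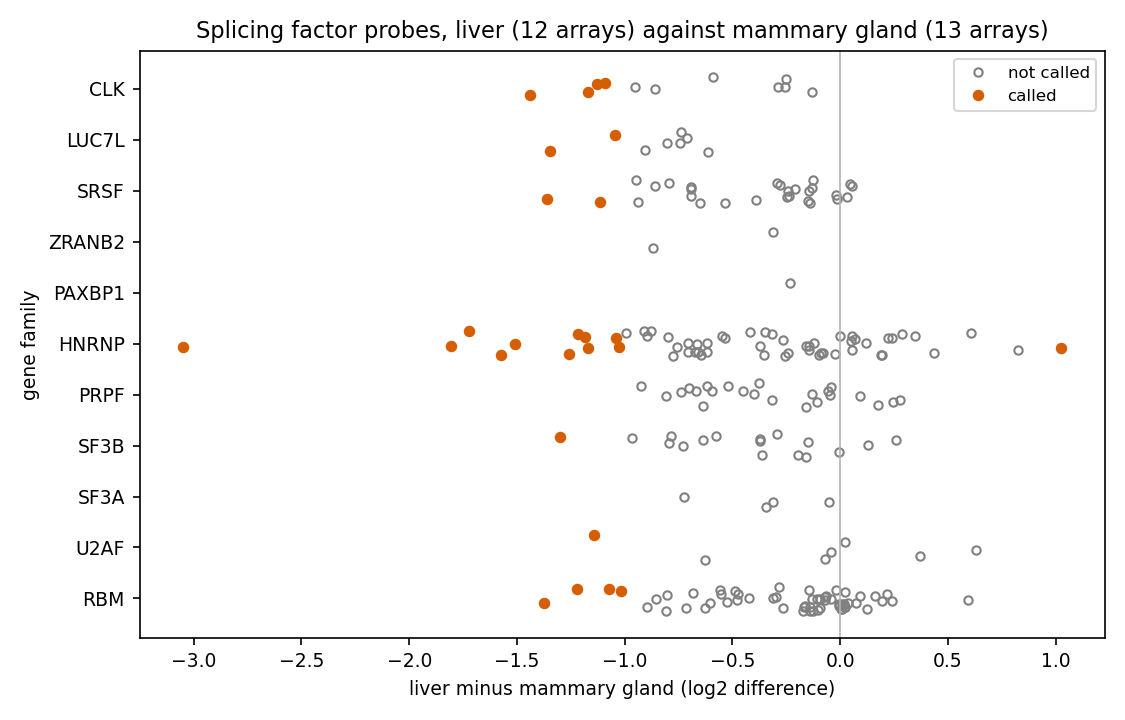
Difference between liver and mammary gland (liver minus mammary gland, log2 units, values normalized over both tissues) of each splicing factor probe by family, with probes called at an adjusted p of 0.05 and at least 2-fold marked. Of the 26 called probes 25 lie below 0, HNRNPLL lowest at -3.05, and 1 of the 6 HNRNPF probes, at 1.02, lies above.

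The sample codes of 3 liver arrays, those of Ctl cow 43, B12 cow 37 and B9 + B12 cow 32, carry an x that the labels do not explain. No other array of the series was on their slide, which was scanned on another day than the rest, so that x, slide and scan day cannot be told apart. Against the other liver arrays, with treatment in the model, 0 members and 0% of all probes passed an adjusted p of 0.05 in limma, and 31 members (14.2%, against 11.5% of all probes) were below an unadjusted p of 0.05. The nearest were HNRNPA1, a shuttling hnRNP, at -0.48 (SE 0.08, adjusted p = 0.296), HNRNPU, a nuclear matrix hnRNP, at -0.59 and -0.51 on 2 probes (SE 0.12 and 0.13), and SF3A3 of the U2 particle at 0.27 (SE 0.10, adjusted p = 0.368). The part of the x in the low levels of CLK1 and its like was not tested. Of the 3 arrays, cow 32 had CLK1 at 8.06, and cows 43 and 37 had it at 11.72 and 11.39.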

How the data were processed

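Liver and mammary RNA was hybridised to 1-colour Agilent bovine arrays of 45220 spots, on 8 slides (Agilent Feature Extraction 10.7.3.1, per the labels). The authors deposited a table of log2 values, which their methods describe as background-corrected (normexp) and normalized between arrays (array medians 6.97 to 6.98 in liver and 6.13 to 6.14 in mammary gland, so that the tissues were scaled apart), and scanner intensity values per spot with 0 or 1 calls for outliers and background. The table was joined to the scanner files by feature number (Spearman rho 0.981 to 0.999 per array). Control spots and 4 to 67 outlier spots per array were left out, no spot was saturated, and a probe with several spots was given their mean. Comparisons across tissues used the scanner median intensity with normexp (offset 50) and quantiles over both tissues. Symbols came from RefSeq accessions. Other splicing genes were a list of 115 symbols, of which 87 had a probe.

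Linear models with a term per group were fitted with limma 3.58.1 (R 4.3.3) over all 43653 probes with Benjamini-Hochberg adjustment, calling an adjusted p of at most 0.05 with at least a 2-fold difference, or the adjusted p alone for slopes on array measures and for the x in sample codes. Scripts were tested on simulated data. Cyber-T is the methods' test, run here with a window of 101 and a confidence of 10, which the methods do not give. The 6 genes shown by array were given with the rule. The other genes named were, per comparison, the 5 largest rises and falls among calls (10 for tissues), or, without calls, the 3 smallest unadjusted p each way among probes whose arrays did not overlap, and the 10 genes most like CLK1. SF3B1 A_73_P334076 and the further genes listed by how many of their probes were called were named after their values were seen. Members, lists and array measures were chosen with earlier results of these data known. The cow numbers pair liver and mammary samples of 12 animals, whose deviations from group means correlated at -0.251 to 0.232 (median 0.0366, above 0.1 in 3 of 12). Alternatives were other backgrounds and scalings, a filter on dim probes, slide and cow as random blocks, array measures as covariates and leaving out each array. Leaving out the arrays that stand apart, and the spike-in level as a covariate, were chosen after seeing the data.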

Additional observations from a re-analysis of the deposited data

Results flagged for a closer look

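In the 4 liver arrays of the B12 group, PAXBP1 was at 12.07 for cow 36 and at 11.59 to 11.65 for the other cows, so that the gap to the nearest array made up 0.889 of the whole range, more than Dixon's critical value for groups of 4. This was 1 of 44 groups of 4 looked at in this way over the named probes, and chance alone sets apart about 1 in 20 groups.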

How the results depend on the processing

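Over the named probes, 2026 of the alternative values kept their direction and their side of the threshold, 98 kept only the direction, 11 newly passed and 70 turned sign. The treatment comparisons had 0 members called under every alternative, except B9 + B12 in liver without the array of cow 38 (1 LUC7L3 probe), and the differences between tissues in the treatment effects ranged from 0 to 1 over the arrays left out. The liver spike-in slope called 80 members (36.5%, against 19% of all probes) where signal over background called 0. In mammary gland, the 48 called for signal over background (21.9%, against 7.17% of all probes) became 20 (9.13%, against 4.72%) with processed signals scaled by the 75th percentile. The count was 17 (7.76%, against 2.23%) with the spike-in level and 34 (15.5%, against 4.88%) with slide as a block. It was 0 with the share of probes well above background, and 0 for either measure without cows 36, 39 and 40. When each array was left out, it ran from 0 (against 0.0137%) to 58 (26.5%, against 6.46%). For the tissues the count was 41 (18.7%, against 19% of all probes) with signal over background as a covariate. It was 19 to 36 (8.68% to 16.4%, against 18.6% to 19%) when each array was left out. With cow as a replicate block it was 26 (11.9%, against 18.7%), and no call among the named probes changed. The replicate block did not alter the 0 calls for the treatment effects between tissues. No array measure says how much RNA went in, and the causes of these changes were not tested.

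Some signs turned, given here and below for the probe of each gene that is brightest in liver. Without the liver arrays of cows 57 and 32, LUC7L3 and SRSF11 were at 0.103 and 0.0536 for B9 in liver, and CLK1, LUC7L3, PAXBP1, SRSF11 and ZRANB2 at 0.0683, 0.447, 0.0373, 0.346 and 0.030 for B9 + B12, while the slopes of HNRNPH1 and ZRANB2 were -0.0171 and -0.104 (0.0892 and 0.293 with the spike-in level) and their x differences 0.0178 and 0.105. Without the mammary arrays of cows 36, 39 and 40, CLK1, HNRNPH1, PAXBP1 and ZRANB2 were at 0.30, 0.28, 0.27 and 0.20 for B9, HNRNPH1, LUC7L3, PAXBP1 and ZRANB2 at 0.31, 0.14, 0.31 and 0.24 for B12, and the LUC7L3 slope at -0.0426. With the spike-in level as the measure there, the slopes of CLK1, HNRNPH1, LUC7L3 and PAXBP1 were 0.0780, 0.0244, 0.535 and 0.304. With the spike-in level as a covariate, SRSF11 was at -0.0824 for B12 in liver and 0.34 for B9 + B12, where LUC7L3 was at 0.13, and in mammary B12 HNRNPH1, LUC7L3, PAXBP1 and ZRANB2 were at 0.0821, 0.0325, 0.0598 and 0.175. PAXBP1 was at 0.0723 for liver B12 with signal over background as a covariate and at 0.12 between tissues without the 5 arrays that stand apart, SRSF11 at -0.0200 for mammary B12 with slide as a block. The RBM46 probe, at 0.0237 for mammary B9 + B12 with the 75th percentile, was well above background on 0 of the 13 mammary arrays, so its value and sign are not read.

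Leaving out each array, differences from Ctl in liver B9 + B12 ran from -3.66 to 0.0683 for CLK1, -2.64 to 0.45 for LUC7L3, -3.43 to 0.0373 for PAXBP1, -1.20 to 0.35 for SRSF11 and -2.77 to 0.0300 for ZRANB2, in liver B9 from -0.91 to 0.10 for LUC7L3 and -0.71 to 0.0536 for SRSF11, and in liver B12 from -0.19 to 0.0599 for PAXBP1 and -0.21 to 0.15 for SRSF11. In mammary B9 they ran from -0.56 to 0.30 for CLK1, -0.42 to 0.28 for HNRNPH1, -0.0949 to 0.32 for LUC7L3, -0.34 to 0.27 for PAXBP1, -0.10 to 0.37 for SRSF11 and -0.41 to 0.20 for ZRANB2, in mammary B12 from -0.22 to 0.0486 for LUC7L3 and -0.0707 to 0.14 for SRSF11, and in mammary B9 + B12 from -0.0580 to 0.28 for PAXBP1. Between tissues PAXBP1 ran from -0.61 to 0.15, and for the x the ranges were -1.11 to 0.0178 for HNRNPH1 and -1.11 to 0.10 for ZRANB2.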
